A study of Mus musculus with 13 samples.

Results

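Cd7 and 7 other genes of the T cell and NK cell lineages, Nkg7, Gata3, Tcf7, Bcl11b, Ptcra, Cd3e, and Lck, were followed across sorted mouse common lymphoid progenitors (CLPs), the BM cells that give rise to T, B, and NK cells. The 8 genes were matched by symbol in both deposited tables, which list 24972 genes in each library, and they were chosen by their TPM values in Notch1+/ΔTAD and WT libraries as known from earlier results of these data, Cd7 for the genotypes that list it. Cd7 is therefore described without any test, and the other 7 genes have no test in Notch1+/ΔTAD against WT. Each of the other comparisons shares 1 group of libraries with that contrast, so a test there is not independent of the choice. RNA from CLPs was measured by 3′ RNA-Seq in 13 libraries, 1 per mouse. There were 5 WT, 5 Notch1+/-, and 3 Notch1+/ΔTAD mice, all on the C57BL/6 strain and 6 to 12 weeks of age. In the Notch1+/- genotype 1 of the 2 Notch1 alleles is functional. In Notch1+/ΔTAD, 1 allele encodes a receptor without the transactivation domain, and the other is WT. Both alleles are present in all cells of the animal rather than in CLPs alone. Cells were gated as viable and Lin-, with low Sca1 and cKit, and as positive for CD127 and CD135. No agent was given to any of the groups.

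Notch1 signaling through the DNA-binding factor RBPj is the signal that commits lymphoid progenitors to the T cell fate, and in the thymus it is followed by the transcription factors Tcf7, Gata3, and Bcl11b. Ptcra, Cd3e, and Lck then build and serve the pre-T cell receptor (pre-TCR). CD7 is a surface glycoprotein of the immunoglobulin superfamily found on T and NK cells and their progenitors, and NKG7 is a protein of cytotoxic granules.

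The promoters are shown because RBPj binds the core TGGGAA, so that a reader can see where these letters lie in genes of the pre-TCR. RefSeq promoters on GRCm38.p6, from 250 bases before to 50 bases after a gene's start, were matched for 7 of the 8 genes, all but Cd7, with 9 promoters in all. TGGGAA or its reverse complement TTCCCA was found in 3 of the 9. Of all 32851 promoters of this length, 8397 (25.6%) hold it. The 3 promoters that hold it are those of Lck at its upstream start, Ptcra, and Cd3e, all on the minus strand, and the second Lck start at chr4:129558323-129558622 has none. Each is printed 5′ to 3′ along the gene, with the core in capitals.
Lck, chr4:129573592-129573891: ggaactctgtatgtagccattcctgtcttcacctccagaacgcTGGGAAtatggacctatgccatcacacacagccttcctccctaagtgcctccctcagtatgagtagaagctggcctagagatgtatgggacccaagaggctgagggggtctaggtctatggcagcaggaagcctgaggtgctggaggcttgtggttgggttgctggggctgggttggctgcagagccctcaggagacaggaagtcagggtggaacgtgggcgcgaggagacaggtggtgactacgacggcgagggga
Ptcra, chr17:46763663-46763962: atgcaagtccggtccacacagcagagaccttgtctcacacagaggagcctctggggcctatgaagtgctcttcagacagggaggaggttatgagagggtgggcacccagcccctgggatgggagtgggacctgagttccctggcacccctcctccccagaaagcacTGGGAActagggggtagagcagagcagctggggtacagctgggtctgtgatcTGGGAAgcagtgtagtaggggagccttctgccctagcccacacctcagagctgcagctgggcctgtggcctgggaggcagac
Cd3e, chr9:45009562-45009861: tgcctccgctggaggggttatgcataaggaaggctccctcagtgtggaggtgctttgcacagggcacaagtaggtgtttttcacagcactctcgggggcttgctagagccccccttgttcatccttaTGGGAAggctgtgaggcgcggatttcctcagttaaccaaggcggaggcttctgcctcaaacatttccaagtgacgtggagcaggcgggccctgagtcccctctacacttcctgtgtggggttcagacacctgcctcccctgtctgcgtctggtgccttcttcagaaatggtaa
Ptcra held 2 matches and each of the other genes 1. A match describes these letters only, and no binding was measured here.

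Values are the authors' transcript abundances in TPM, a unit that sums to 1000000 in each library. The depth behind a value is unknown, since no read counts were used here, and a 0 has no stated detection limit. Among 13 genes that every cell uses, 6 were listed at 0 in at least 1 library, and 4 of these, Hprt, Pgk1, Tbp, and Polr2a, in 3 or more. A gene is therefore called listed at 0 rather than absent, and the value of each library is given rather than a mean. WT libraries had 3179 to 3855 genes at 1 TPM or higher, Notch1+/- libraries 2818 to 4736, and Notch1+/ΔTAD libraries 3984 to 4663. The part of this count in the Cd7 values below was not tested. Of the transcripts for the sort markers, Flt3, which encodes CD135, was above 0 in all 13 libraries (5.21 to 282 TPM). Il7r, which encodes CD127, was at 0 in 1 library, Notch1+/- library 6. Kit was at 0 in 5 libraries and Ly6a, which encodes Sca1, in 8.

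Cd7 was listed in all 3 Notch1+/ΔTAD libraries, in 1 of 5 Notch1+/- libraries, and in 0 of 5 WT libraries. Its level was 402 TPM in Notch1+/ΔTAD library 7, 276 TPM in library 9, and 140 TPM in library 14. In the Notch1+/- group it was 17.2 TPM in library 4 and 0 TPM in libraries 5, 6, 12, and 13. The lowest Notch1+/ΔTAD value thus lay above every value of the other genotypes, and these levels are a description because they chose the gene. On the log2(TPM + 1) scale the mean was 7.97 in Notch1+/ΔTAD and 0.84 in Notch1+/- libraries, a difference of 7.13 (moderated standard error 1.61). No fold is given against WT, where the gene was listed at 0 throughout.

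**Figure D1:**
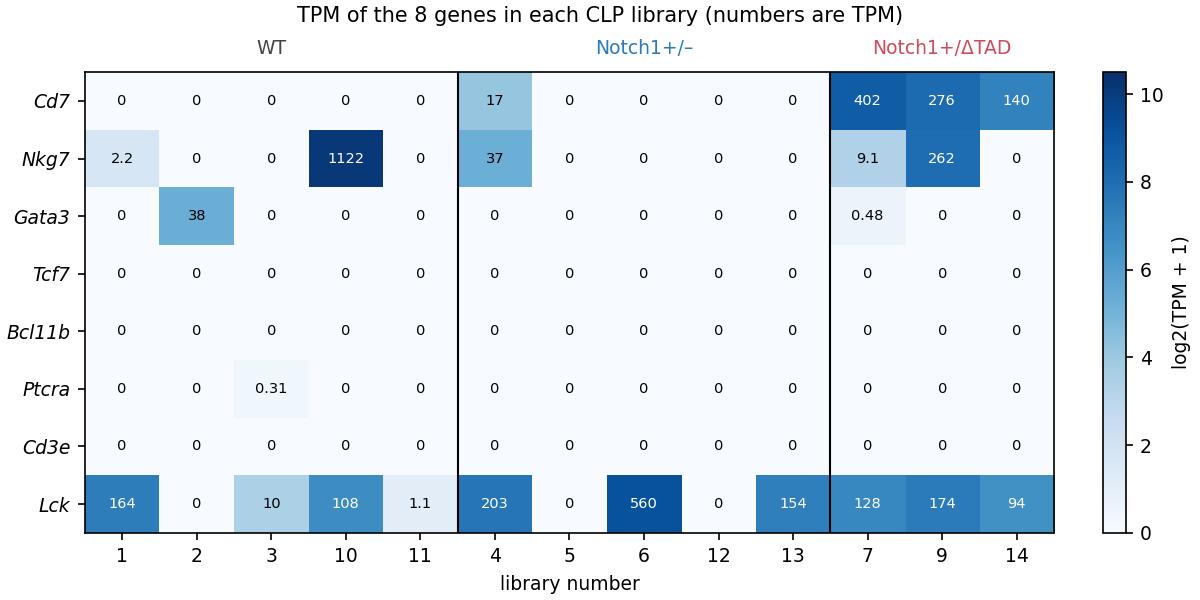
TPM of the 8 genes (rows) in each of the 13 libraries (columns, by library number within genotype), with color for log2(TPM + 1) and the TPM written in each cell. Cd7 is at 140 to 402 TPM in the 3 Notch1+/ΔTAD libraries and at 0 in all 5 WT libraries, and Tcf7, Bcl11b, and Cd3e are at 0 in every library.

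Because every Notch1+/ΔTAD value of Cd7 lay above all others, these libraries were also highest within each range of library numbers. The ranges therefore add no separate result. Notch1+/- differed from WT by library 4 alone. Among library numbers 1 to 9, Cd7 was 276 to 402 TPM in Notch1+/ΔTAD, 0 to 17.2 TPM in Notch1+/-, and 0 TPM in WT libraries. Among numbers 10 to 14, the single Notch1+/ΔTAD library had 140 TPM, and both WT and both Notch1+/- libraries had 0 TPM. Cd7 was 1 of 31 genes with 0 TPM in every WT and at least 1 TPM in every Notch1+/ΔTAD library, which is 0.654% of the 4737 genes tested in that comparison. Of the 17125 genes at 0 in all WT libraries, 2 reached 100 TPM in every Notch1+/ΔTAD library, Cd7 and Psma5, a proteasome subunit named here after its values were seen. Among the genes tested, 113 (2.39%) had every Notch1+/ΔTAD library above every WT library. Similarly, 153 (2.44%) had every Notch1+/ΔTAD library above every Notch1+/- library, and Cd7 belongs to both sets. Fewer genes lay the other way, 35 with every Notch1+/ΔTAD library below every WT library and 39 below every Notch1+/- library. Nothing is read from these counts, since the same contrasts chose Cd7.

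Markers of other cell types were set beside Cd7. Of 8 markers of mature T cells, 5 (62.5%) were at 0 in all 13 libraries, Cd3e, Cd3g, Cd8a, Cd8b1, and Cd5. The share at 0 throughout was 59.4% over all genes. The summed level of the 8 markers was 0 TPM in each of the 3 Notch1+/ΔTAD libraries, 0 to 187 TPM in WT, and 0 to 17.0 TPM in Notch1+/- libraries. The highest sums came from Cd4, the coreceptor of helper T cells, with 106 TPM for WT library 2 and 187 TPM for WT library 10. These 8 markers were at 0 in all 4 libraries that listed Cd7. Zeros were common in libraries without Cd7 too, since Cd3d was above 0 in 1 library, Cd4 in 2, and Cd28 in 1. Lck was 93.8 to 203 TPM in the 4 libraries that listed Cd7. The T cell receptor genes Trac, Trbc1, and Trbc2 did not match by symbol and are not among the 8. The part of T cells in the Cd7 values was not tested. Markers of plasmacytoid dendritic cells were summed as well, because these cells share the BM with CLPs. The sum over 8 markers was 989 to 2775 TPM in WT (median 1308), 784 to 1847 TPM in Notch1+/- (median 954), and 973 to 3303 TPM in Notch1+/ΔTAD libraries (median 1957). The median was thus highest in Notch1+/ΔTAD, and the ranges overlapped. A median of 5, 5, and 7 of these 8 markers was above 0 in the respective genotypes. Siglech, Bst2, Tcf4, and Irf8 were above 0 in all 13 libraries and Klk1 in none. Ccr9 was 60.3, 0, and 10.2 TPM in Notch1+/ΔTAD libraries 7, 9, and 14, reached 1 TPM in 4 of 5 Notch1+/- libraries (up to 74.9 TPM), and was at most 0.193 TPM in WT. Ly6c2 was 153, 0, and 77.4 TPM in the same Notch1+/ΔTAD libraries, 0 in all Notch1+/- libraries, and up to 280 TPM in WT. Spib was above 0 in 2 libraries of each genotype.

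The sum over 10 myeloid markers was 436 to 2067 TPM in WT (median 873), 212 to 1257 TPM in Notch1+/- (median 737), and 272 to 1777 TPM in Notch1+/ΔTAD libraries (median 1715). Lyz2, the lysozyme gene of myeloid cells, was 90.9, 0, and 61.1 TPM in Notch1+/ΔTAD libraries 7, 9, and 14, up to 5.90 TPM in Notch1+/-, and 0 in all WT libraries. S100a9, a gene of neutrophils and monocytes, was 397, 138, and 528 TPM in these Notch1+/ΔTAD libraries, 0 to 871 TPM in WT, and 0 in 3 of 5 Notch1+/- libraries, with a highest value there of 1001 TPM. Notch1+/ΔTAD lay above Notch1+/- by 6.06 for S100a9 (standard error 2.26) and by 3.48 for Lyz2 (standard error 1.39) on the log2(TPM + 1) scale. These genes and Ly6c2 had an unadjusted p under 0.05 in limma between the mutants, and none of the 3 passed after adjustment (limma adjusted p = 0.932 for each). Of the other myeloid markers, Mpo, Prtn3, S100a8, Csf1r, and Cd14 also had a higher mean in Notch1+/ΔTAD than in Notch1+/-. Ctsg (difference -1.12), Elane, and Itgam had a lower one, and Elane and Itgam were at 0 in all Notch1+/ΔTAD libraries. In Notch1+/ΔTAD library 9, which listed Cd7, Lyz2 and Ly6c2 were at 0 and S100a9 was at 138 TPM. The part of plasmacytoid dendritic and myeloid cells in the Cd7 values was not tested, and the markers named here beyond the sums were picked after their values were seen. In bulk RNA, fewer cells of a type and less RNA per cell cannot be told apart.

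On GRCm38, Cd7 occupies bases 121036747 to 121039418 of chromosome 11 on the minus strand (GENCODE M21). An antisense gene, Gm11775, overlaps it, and whether strand was used to assign reads is not given in the sources used here, so reads from that gene cannot be told from those of Cd7. The nearest genes in the tables on the higher coordinate side are Sectm1b, 14040 bases away, and Sectm1a, 27989 bases away. Both belong to the family that encodes ligands of CD7, and both were listed at 0 in all 13 libraries. On the lower coordinate side, Csnk1d, a casein kinase gene 45417 bases away, was 0 to 135 TPM in WT, 7.57 to 59.6 TPM in Notch1+/-, and 18.2 to 132 TPM in Notch1+/ΔTAD libraries. Slc16a3, a lactate transporter gene 75879 bases away, was above 0 in 1 library of each genotype, at up to 61.2 TPM in Notch1+/-, 0.315 TPM in WT, and 0.311 TPM in Notch1+/ΔTAD. None of these 4 neighbors was higher in every Notch1+/ΔTAD library than in the WT libraries.

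Lck, the Src-family kinase that starts signaling from the pre-TCR and TCR, was the most often listed of the 8 genes, at 1 TPM or more in 10 of 13 libraries. In WT libraries 1, 2, 3, 10, and 11 it was 164, 0, 10.0, 108, and 1.15 TPM. In Notch1+/- libraries 4, 5, 6, 12, and 13 it was 203, 0, 560, 0, and 154 TPM. The levels of Notch1+/ΔTAD libraries 7, 9, and 14 were 128, 174, and 93.8 TPM. The Notch1+/ΔTAD libraries lay close together inside the Notch1+/- range, 1 of them was above the highest WT value, and no genotype stood apart from the others. The median was 154 TPM in Notch1+/-, 128 TPM in Notch1+/ΔTAD, and 10.0 TPM in WT libraries, and neighbors in this order overlapped. Notch1+/- exceeded WT by 1.08 on the log2(TPM + 1) scale (standard error 2.18, 95% interval -3.58 to 5.73), which did not pass the test (limma adjusted p = 0.993). Without Notch1+/- library 6 this difference was -0.003. Notch1+/ΔTAD exceeded Notch1+/- by 2.19 (standard error 2.21, 95% interval -2.39 to 6.77), which did not pass the test either (limma adjusted p = 0.997). That difference was 0.99 without Notch1+/- library 5 or without library 12, and 3.27 without library 6. The difference from WT to Notch1+/ΔTAD was 3.27 (standard error 1.87), given as a description. Lck lies on chromosome 4 from 129548344 to 129573641 on the minus strand. The microRNA gene Mir8119 overlaps it on the same strand.

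**Figure D2:**
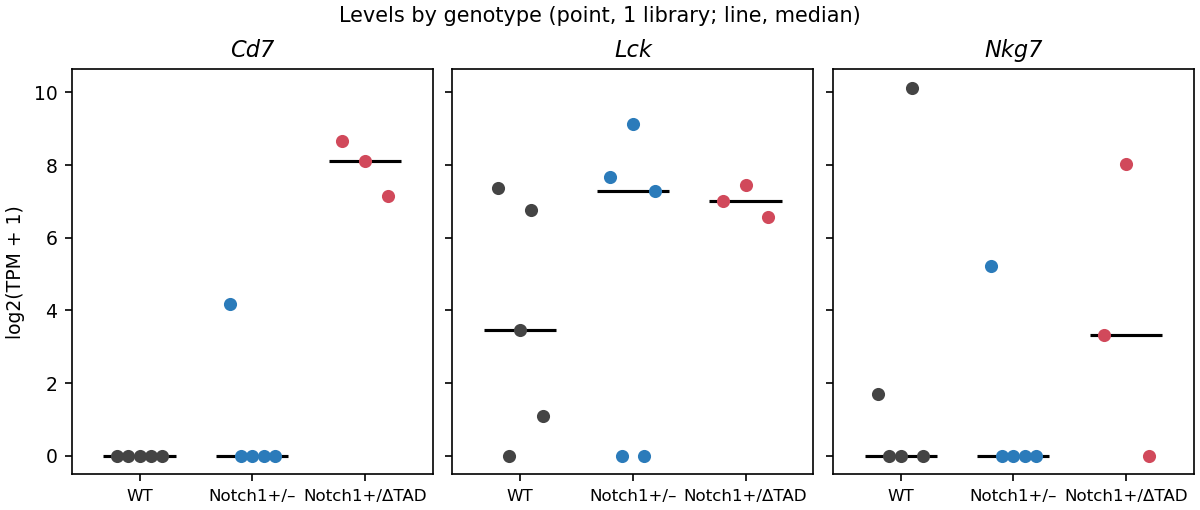
Level of Cd7, Lck, and Nkg7 as log2(TPM + 1) by genotype, where each point is 1 library and each line the median of its genotype. The 3 Notch1+/ΔTAD points for Cd7 lie above all others, whereas for Lck and Nkg7 the genotypes overlap.

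Nkg7, the cytotoxic granule gene, was listed in 5 of 13 libraries with a wide range. Among WT libraries, number 10 had 1122 TPM, number 1 had 2.24 TPM, and numbers 2, 3, and 11 had 0 TPM. In Notch1+/- it was 36.7 TPM in library 4 and 0 TPM in libraries 5, 6, 12, and 13. In Notch1+/ΔTAD it was 9.09 TPM in library 7, 262 TPM in library 9, and 0 TPM in library 14. Each genotype had at least 1 library at 0, and the highest value was from a WT mouse. On the log2(TPM + 1) scale Notch1+/ΔTAD lay 2.74 above Notch1+/- (standard error 2.34, 95% interval -2.12 to 7.60), which did not pass the test (limma adjusted p = 0.997). This difference was 0.62 without Notch1+/ΔTAD library 9. The difference of Notch1+/ΔTAD from WT was 1.43 (standard error 2.64, no test). It became -0.70 without Notch1+/ΔTAD library 9 and 3.37 without WT library 10. In the comparison of Notch1+/- with WT, Nkg7 did not reach the minimum level for testing. The difference there was -1.32 (standard error 2.23), and it was 0.62 without WT library 10. Nkg7 lies on chromosome 7 from 43437073 to 43438249 on the plus strand, and no other annotated gene overlaps it.

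Libraries that listed more than 1 of Cd7, Nkg7, and Lck were counted. All 4 libraries with Cd7 at 1 TPM or more also listed Lck, and so did all 5 libraries with Nkg7. Cd7 and Nkg7 were both listed in 3 libraries, Notch1+/- library 4 and Notch1+/ΔTAD libraries 7 and 9. Notch1+/- library 4, which had the only Cd7 value outside the Notch1+/ΔTAD genotype, was thus also the only Notch1+/- library with Nkg7. These counts are over 13 libraries of which 10 list Lck, and they are given without a test.

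The transcription factors of T cell commitment were listed rarely or not at all. Tcf7, which encodes TCF-1, and Bcl11b, which closes off other fates in committed thymocytes, had 0 TPM in all 13 libraries. Gata3 was listed in 2 libraries, at 37.9 TPM for a WT mouse (library 2) and at 0.484 TPM for a Notch1+/ΔTAD mouse (library 7). Gata3 did not reach the minimum level for testing in any comparison. Of the pre-TCR genes, Cd3e, a signaling chain of the CD3 complex, had 0 TPM in all 13 libraries. Ptcra, which encodes the pre-TCR alpha chain, was listed only in WT library 3, at 0.311 TPM. In all, 3 of the 8 genes (37.5%) were listed at 0 throughout, compared with 14823 of 24972 genes in the tables (59.4%). Only Lck, Nkg7, and Cd7 reached 1 TPM in more than 1 library.

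These 5 genes lie on chromosome 11 (Tcf7, 52252371 to 52283014), chromosome 12 (Bcl11b, 107910403 to 108003602), chromosome 2 (Gata3, 9857078 to 9890034), chromosome 9 (Cd3e, 44998740 to 45009627), and chromosome 17 (Ptcra, 46755663 to 46763712), all on the minus strand. Genes on the same strand overlap Gata3 (9230102O04Rik), Tcf7 (Gm26551), and Cd3e (Gm48720), and genes on the other strand overlap Gata3, Tcf7, Cd3e, and Ptcra. Values of these 4 genes are less certain where reads could be shared.

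Genes with roles beside these 8 were then examined in 3 lists. Of 18 genes of T cell specification, 5 were at 0 in all 13 libraries, among them the Notch targets Dtx1 and Notch3 and the TCF-1 relative Lef1. Of 19 genes of the TCR complex and its signaling, 9 were at 0 throughout, including Cd3g, the kinase gene Zap70, and the surface markers Cd2, Cd5, and Thy1. Of 21 NK lineage genes, 14 (66.7%) were at 0 throughout, including the transcription factors Eomes and Tbx21, the receptor gene Ncr1, and Prf1, Gzma, and Gzmb of cytotoxic granules. Over all 24972 genes the share at 0 throughout was 59.4%. It was 27.8% for T cell specification and 47.4% for the TCR list, so these zeros are not particular to the lists. The constant region genes Trac, Trbc1, Trbc2, and Tcrg-C1 were not analysed here. At least 1 TPM in 5 or more libraries was reached by 10, 3, and 2 genes of the respective lists.

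**Figure D3:**
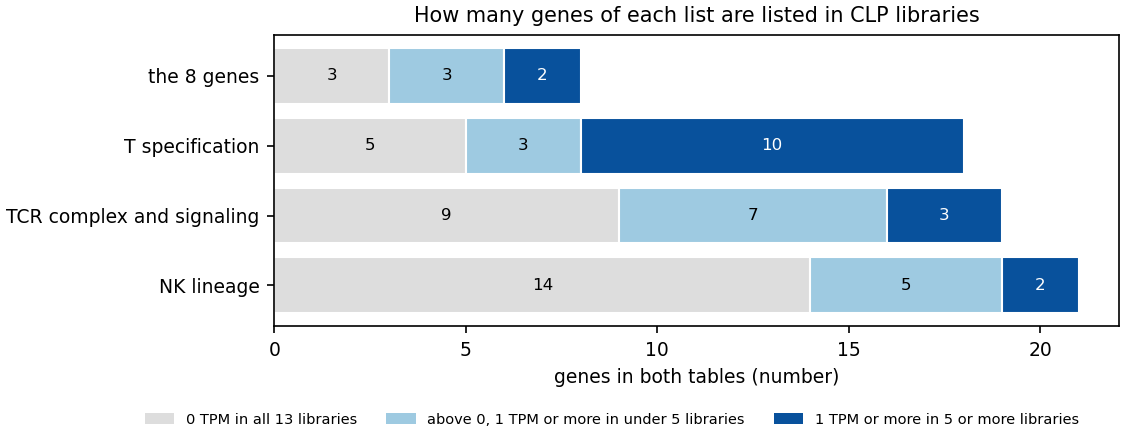
Number of genes in each list (bar length) by how often they were listed, with gray for 0 TPM in all 13 libraries, light blue for genes above 0 that reached 1 TPM in under 5 libraries, and dark blue for 1 TPM or more in 5 or more libraries. T cell specification had 10 of 18 genes in the last class, and the NK lineage list had 2 of 21.

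Some genes of the lists were listed widely. Ikzf1, which encodes Ikaros, and Satb1, a chromatin organizer, were above 0 in all 13 libraries. Satb1 was 11.2 to 66.9 TPM in WT, 24.4 to 146 TPM in Notch1+/-, and 49.1 to 86.7 TPM in Notch1+/ΔTAD libraries. Ikzf1 was 8.67 to 109 TPM in WT, 43.1 to 188 TPM in Notch1+/-, and 16.4 to 88.5 TPM in Notch1+/ΔTAD libraries. For both genes the 3 genotypes overlapped.

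The Notch target Hes1 was above 0 in 11 of 13 libraries. In WT libraries 1, 2, 3, 10, and 11 it was 17.3, 2.73, 27.9, 32.2, and 0 TPM. In Notch1+/- libraries 4, 5, 6, 12, and 13 it was 50.9, 79.4, 0.782, 0, and 6.92 TPM. Hes1 levels of Notch1+/ΔTAD libraries 7, 9, and 14 were 109, 44.2, and 16.9 TPM. The lowest Notch1+/ΔTAD value lay inside the WT range. The difference of Notch1+/ΔTAD from WT was 2.28 on the log2(TPM + 1) scale (standard error 1.80, limma adjusted p = 0.972), and that from Notch1+/- was 2.31 (standard error 1.91, limma adjusted p = 0.997). Notch1 itself was 0 to 25.7 TPM in WT, 9.27 to 78.5 TPM in Notch1+/-, and 0.893 to 35.0 TPM in Notch1+/ΔTAD libraries, and no difference passed the test. The limma adjusted p was 0.993 for Notch1+/- and 0.996 for Notch1+/ΔTAD against WT, and 0.997 between the mutants. A 3′ tag does not tell a mutant allele from a WT allele where both are transcribed, so Notch1 levels do not check the genotypes.

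Cd27, a receptor of the TNF receptor family on lymphoid progenitors, T cells, and NK cells, was 0 to 340 TPM in WT, 0 to 1252 TPM in Notch1+/-, and 83.8 to 764 TPM in Notch1+/ΔTAD libraries. Its difference between Notch1+/ΔTAD and WT was 2.21 (standard error 1.72, limma adjusted p = 0.972). Of the NK list, the adaptor genes Tyrobp and Fcer1g, which myeloid cells express as well, were each above 0 in 11 of 13 libraries. Tyrobp was 836 TPM in WT library 10, its highest value and the library with the highest Nkg7 value, and 11.0 TPM in Notch1+/ΔTAD library 9, which had the second highest Nkg7 value. Klrd1, an NK receptor gene, was 0.686 TPM in WT library 10 and 0 TPM in Notch1+/ΔTAD library 9. In other libraries Klrd1 reached 94.1 TPM in WT and 137 TPM in Notch1+/-. Nfil3, a factor of early NK development, was 0 TPM in WT library 10 and 142 TPM in Notch1+/ΔTAD library 9.

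In Notch1+/ΔTAD compared with WT, 10 genes of T cell specification were tested, of which 5 had a positive and 5 a negative difference (median log2 fold change 0.19, against 0.47 over all 4737 genes tested). For the TCR list, 4 genes were tested with a median of 0.45, and for the NK list 2 genes with a median of 0.01. In Notch1+/- compared with WT, 9, 3, and 2 genes were tested, with medians of -0.03, 0.00, and -0.73 against 0.06 over all 3178 genes tested. Between the mutants, 10, 5, and 4 genes were tested, with medians of 0.42, 0.63, and 0.63 against 0.35 over all 6281 genes tested. No gene of the 3 lists passed an adjusted p under 0.05 in limma in any comparison, and 0 had an unadjusted p under 0.05. The lists were chosen with earlier results of these data known, so their tests are not independent of the choice. The background was low as well, because 0 genes (0%) passed the adjusted threshold in each comparison. Without adjustment, a p under 0.05 was reached by 237 genes (5%) for Notch1+/ΔTAD and 170 genes (5.35%) for Notch1+/- against WT, and 335 genes (5.33%) between the mutants. Of the 237 genes, 196 were higher and 41 lower in Notch1+/ΔTAD. The 170 split into 85 higher and 85 lower in Notch1+/-. Between the mutants, 257 were higher and 78 lower in Notch1+/ΔTAD.

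**Figure D4:**
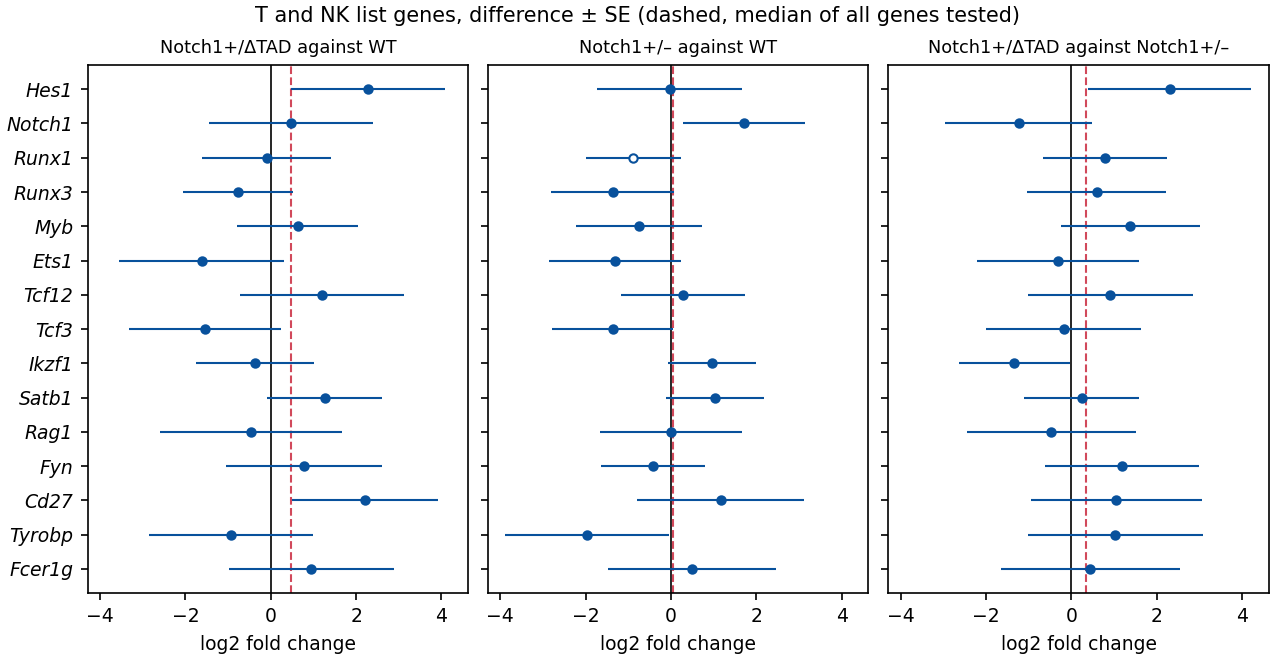
Log2 fold change on the log2(TPM + 1) scale of the 15 list genes with at least 1 TPM in 5 or more libraries, in 3 comparisons, where points are differences of means, bars are 1 standard error, and the dashed line is the median of all genes tested. The open point, Runx1 in Notch1+/- against WT, did not reach the minimum for testing, and none of the 15 genes passed the test in any comparison.

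Profiles over the 13 libraries were compared with those of 6278 other genes by Pearson correlation of log2(TPM + 1), given as a description. The genes most like Cd7 were Sirt2, a deacetylase gene (r = 0.941), Cab39l (r = 0.935), the amino acid transporter gene Slc36a1 (r = 0.934), Clec9a, a C-type lectin gene of dendritic cells (r = 0.920), and Fam91a1 (r = 0.911). Sirt2 was 210, 261, and 58.8 TPM in Notch1+/ΔTAD libraries 7, 9, and 14, 0.33 TPM in Notch1+/- library 12, and 0 TPM in the other 9 libraries. Clec9a was 39.3, 11.1, and 41.2 TPM in the 3 Notch1+/ΔTAD libraries and 0 TPM in the other 10. The 5 genes were found by this search among many, so their resemblance follows from the choice.

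**Figure D5:**
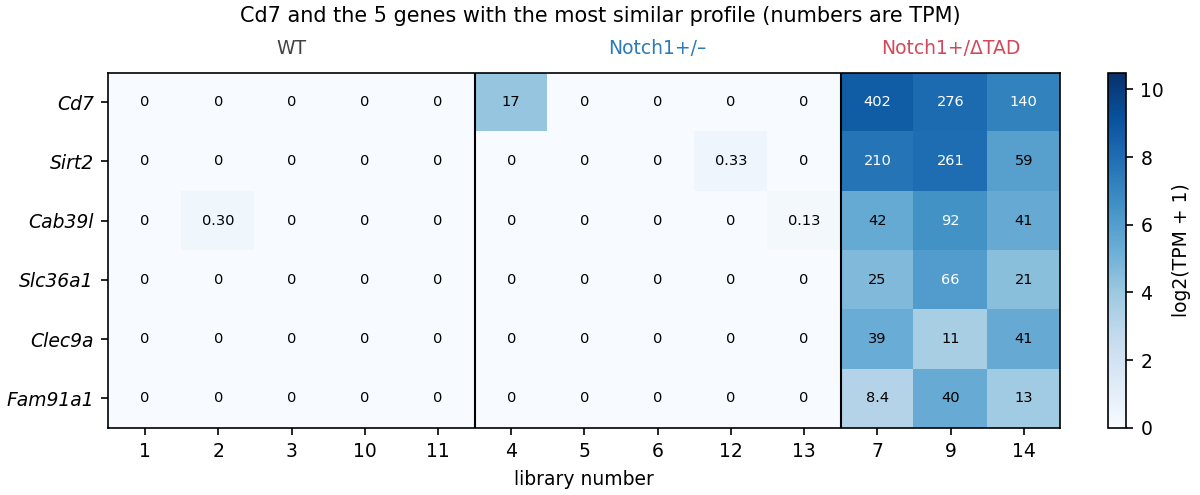
TPM of Cd7 and of the 5 genes with the highest correlation to it (rows) in the 13 libraries (columns), with color for log2(TPM + 1). All 6 genes are above 8 TPM in each Notch1+/ΔTAD library and at 0 or below 1 TPM in WT libraries.

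The genes most like Nkg7 were Rhno1 (r = 0.975), Abi3 (r = 0.934), Fndc3b (r = 0.884), Pelo (r = 0.857), and Bcl7c (r = 0.839). Rhno1, a gene of the DNA damage checkpoint, was 564 TPM in WT library 10, where Nkg7 was highest, 80.0 TPM in Notch1+/ΔTAD library 9, and 29.4 TPM in Notch1+/- library 4. Those most like Lck were Pam16 (r = 0.891), Zcchc8 (r = 0.884), Usp34 (r = 0.842), Mfsd5 (r = 0.837), and Ttc1 (r = 0.827). Pam16, a gene of the mitochondrial import motor, was at 0 in WT libraries 2 and 11 and Notch1+/- libraries 5 and 12, and Lck was at 0 or at its lowest listed value in the same 4 libraries. The points of each correlation share libraries, and many of them are at 0. None of the genes named for likeness is a T or NK gene of the 3 lists.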

How the data were processed

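The authors sorted CLPs from the BM, made strand-specific 3′ libraries in a single round of preparation, aligned reads with STAR to mm10, and deposited TPM in 2 tables, 1 for each mutant beside the same 5 WT columns. The tool and annotation behind TPM, and whether strand was used to assign reads, are not given in the sources used here, and the labels and methods give different numbers of sorted cells. TPM divides by gene length although 3′ tags do not grow with length, so single genes were not ranked by level, and this length dependence also enters the sums over marker genes and counts at a common TPM. Replicates are separate mice.

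The scale of all tests was log2(TPM + 1). A 2-sided limma test (version 3.58.1 in R 4.3.3, eBayes with a trend) was used, with Benjamini-Hochberg adjustment over all genes tested and a threshold of 0.05. A gene was tested when the number of libraries at 1 TPM or higher was at least the size of the smaller group. The mutants were compared in a model of all 13 libraries. The authors' DESeq2 was not run, since no counts were used. The test was checked on simulated data.

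The 8 genes and the gene lists were chosen with earlier results of these data known. Named beyond the 8 are list genes at 1 TPM or more in 5 or more libraries or with an unadjusted p under 0.05, the 5 genes most correlated with Cd7, Nkg7, and Lck, the 2 nearest genes on each side of Cd7, and the sort markers. Other list genes are named as examples at 0 or beside a value. The settings varied were the pseudocount (0.1 and 10), testing all genes above 0, quantile normalization, eBayes without trend, a term for library numbers, and leaving out each library in turn. Positions are from GENCODE M21.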

Additional observations from a re-analysis of the deposited data

Results flagged for a closer look

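In groups of 5 libraries, a value was set aside for a closer look when its gap to the nearest other value exceeded 0.71 of the range of the group. Of 37 groups checked, 7 did so. A chance rate of 1 in 20, or 1.85 groups, does not hold for groups with many zeros. The 7 are therefore not read as an excess. Cd7 was 17.2 TPM in Notch1+/- library 4 and 0 TPM in the other 4 Notch1+/- libraries. The same library had the only Notch1+/- value of Nkg7, 36.7 TPM. Nkg7 was 1122 TPM in WT library 10 beside 2.24 TPM in the next WT library. Gata3 was 37.9 TPM in WT library 2 and Ptcra 0.311 TPM in WT library 3, and both were at 0 in the other WT libraries. Of the list genes, Runx1 was 9.74 TPM in Notch1+/- library 12 beside a next value of 0.626 TPM, and Runx3 was 220 TPM in Notch1+/- library 6 beside a next value of 50.3 TPM. With most values of a group at 0, any single listed value meets this criterion.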

How the results depend on the processing

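No paired analysis was made because the sample titles name no pairs of mice across genotypes. Of 227 alternative values, 221 kept the main result. For counts of genes called, which are many of these values, this meant a count that stayed at 0. Tested differences among the 221 kept direction and call, and untested ones moved by less than the spread between libraries. The untested Nkg7 differences changed sign within that spread, from 1.43 to -0.70 for Notch1+/ΔTAD (without its library 9) and from -1.32 to 0.62 for Notch1+/- (without WT library 10) against WT. Without the trend, limma called 15 genes in Notch1+/ΔTAD and 2 in Notch1+/- against WT and 3 between the mutants, where the trend gave 0, and the cause was not tested. The T and NK list genes called stayed at 0 in every alternative, and all genes called ranged from 0 to 0 when 1 library was left out. The Cd7 difference between the mutants was 9.80 with a pseudocount of 0.1 and 4.42 with one of 10, as the constant added to zeros sets its size, and it was 6.79 to 7.55 when 1 library was left out. Without Notch1+/- library 4, no value is given, since that group is then at 0. The median Cd7 level of Notch1+/ΔTAD was 208 to 339 TPM when 1 of the 3 libraries was left out. The Lck difference of Notch1+/- from WT reversed to -0.003 without Notch1+/- library 6 (limma adjusted p = 0.999, range over alternatives 0.890 to 0.999), and its range without 1 library was -0.003 to 2.28 (the latter without Notch1+/- library 5). Quantile normalization moved the median of all genes in Notch1+/ΔTAD against WT from 0.47 to -0.02. With 3 Notch1+/ΔTAD mice and unknown depth, low levels cannot be resolved.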

Other observations

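Markers of further lineages were listed beside the T and NK genes. The summed level of 10 B lineage markers was 158 to 1915 TPM in WT, 161 to 2045 TPM in Notch1+/-, and 117 to 1701 TPM in Notch1+/ΔTAD libraries. Of 9 erythroid markers, 8 (88.9%) were at 0 in all 13 libraries, beside 59.4% of all genes. The median B lineage sum was 575 TPM in WT, 351 TPM in Notch1+/-, and 1068 TPM in Notch1+/ΔTAD libraries, and the ranges overlapped. Their part in the levels of Cd7, Nkg7, and Lck was not tested.

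Several T and NK list genes were listed in few libraries at high values, a pattern shared with Nkg7 and Gata3. It is not particular to T and NK genes. Tbp, which every cell uses, was at 0 in 9 of 13 libraries and reached 96.7 TPM. Tox was 22.0 TPM in Notch1+/ΔTAD library 7 and 0 TPM in the other 12 libraries. Lcp2, an adaptor of TCR signaling, was 91.0 TPM in that library and 0 TPM in the other 12. Nfil3 was 187 TPM in WT library 3, 142 TPM in Notch1+/ΔTAD library 9, and 103 TPM in Notch1+/- library 13. These genes were named after their values were seen.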
